A study of Mus musculus with 24 samples.

Results

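Expression of 7 genes for ATP-driven export pumps of drugs, conjugates and lipid mediators was followed in mouse dendritic cells grown from bone marrow. The genes are Abcc1, Abcc3, Abcc4, Abcc5, Abcc10, Abcb1a and Abcb1b. They were taken by symbol from the 55487 genes of the deposited count table. The group was chosen by the measured expression of Abcc1, which an earlier test of these data had found to differ between genotypes on all days. All 7 passed the filter on low counts, as did 14535 genes in all. The knockout (KO) mice were homozygous for a floxed Arpc4, a subunit of the actin-branching Arp2/3 complex, and carried a Cre driven by the CD11c promoter on 1 allele. The wild-type (WT) controls were also homozygous for the floxed Arpc4 but had no Cre. Marrow of male and female mice aged 8 to 10 weeks was cultured with GM-CSF at 50 ng/mL and replated on days 4 and 7. Only cells in suspension were kept, and adherent cells were discarded. The labels put CD11c-positive cells at 90% or more. RNA was sequenced on days 7, 8, 9 and 10, with 3 mice per genotype and day. The WT mice are numbered 63, 65 and 66 and the KO mice 64, 67 and 68, and each number appears on all 4 days. Because Cre is under the CD11c promoter, Arpc4 is lost only once a cell starts to make CD11c, and cells without CD11c keep it.

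ABC transporters are membrane proteins that use ATP to move substrates across a membrane. The ABCC subfamily, or multidrug resistance-associated proteins, exports organic anions, among them conjugates with glutathione, and the ABCB1 proteins, or P-glycoproteins, pump hydrophobic drugs out of cells. In dendritic cells ABCC1 is best known for releasing leukotriene C4, a glutathione conjugate of a lipid, and this export has been tied to their migration to lymph nodes.

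Library totals ran from 19952047 to 31049798 counts over the 24 libraries. Arpc4 itself lay between 188 and 270.3 CPM, the count scaled to the library's size in WT and between 155 and 231 CPM in KO, and on each day the 3 KO libraries were below the 3 WT libraries. The Y-linked transcript Ddx3y was above 10 CPM in WT mouse 63 on all 4 days, but in KO in number 64 on days 7 and 9, number 68 on day 8 and number 67 on day 10, so the KO numbers did not follow 1 animal in this transcript. A KO number is therefore used as the label of 1 library on each day, and leaving out a KO number does not remove a single animal. The tests do not use the mouse numbers. CD11c itself (Itgax) was at 750.4 CPM or more in every library, and none of the 10 dendritic cell, 10 macrophage or 10 neutrophil markers was at 0 in any library. The summed dendritic cell markers went from 2857 to 3489 CPM on day 7 to 5645 to 7456 CPM on day 10 in WT, and from 3160 to 3756 to 5164 to 8308 CPM in KO. The summed macrophage markers went from 5181 to 5604 down to 3491 to 3582 CPM in WT and from 4907 to 6209 down to 3220 to 4639 CPM in KO. From day 7 to day 10, 6 of the 10 dendritic cell markers were called up and 0 down in each genotype, and 6 of the 10 macrophage markers were called down in WT and 7 in KO, with 1 up in each. Of all genes, 18.9% were called up and 18.1% down in WT, and 19.7% up and 17.1% down in KO. The summed neutrophil markers went from 1681 to 3338 CPM on day 7 to 4030 to 5913 CPM on day 10 in WT, with 5 of 10 called up and 1 down, and from 2260 to 5858 CPM to 2857 to 4785 CPM in KO, with 0 up and 2 down. Lymphocyte markers summed to at most 5.70 CPM and red cell precursor markers to at most 2.79 CPM, with Alas2 and Rhag at 0 in all 24 libraries. The summed mast cell and basophil markers in WT were at 42.1 to 57.7 CPM on day 7, 84.2 to 126 on day 8, 79.4 to 96.7 on day 9 and 48.3 to 67.8 CPM on day 10. In KO they were at 44.7 to 127, 99.3 to 179, 112 to 156 and 56.3 to 85.1 CPM, and the tryptase gene Tpsab1 was at 0 in all 24 libraries. In these bulk samples fewer cells of a type and less RNA per cell cannot be told apart. The part of the dendritic cell, macrophage, neutrophil and mast cell markers in the changes between days was not tested.

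On the per-length scale of TPM, counts are divided by gene length. The ratio of CPM to TPM of the exporters followed their annotated exonic length over all transcripts. This was 15092 bases for Abcc1 and 10681 for Abcc5, against 5698 for Abcc3 and 6389 for Abcc4. The order of the genes thus depends on the lengths used. By this measure Abcc5 was the most abundant exporter in WT on day 7, with a mean of 57.6 ± 4.1 TPM (SD, n = 3). Abcc3 followed with 41.9 ± 0.90, then Abcc1 with 20.2 ± 0.72 and Abcc4 with 11.7 ± 0.33 TPM. The drug pump Abcc10 was at 4.57 TPM, Abcb1a at 2.80 and Abcb1b at 1.42 TPM. By day 10 in WT the order had become Abcc5 at 55.4, Abcc1 at 22.7, Abcc4 at 21.1, Abcc3 at 20.4, Abcc10 at 4.34, Abcb1b at 1.64 and Abcb1a at 0.68 TPM. The ranges of Abcc3 over the 3 mice, 18.2 to 22.5 TPM, overlapped those of both Abcc4 and Abcc1 on that day. In KO on day 10 the means were 45.7 TPM for Abcc5, 29.9 for Abcc1, 24.04 for Abcc4, 22.7 for Abcc3, 4.32 for Abcc10, 2.14 for Abcb1b and 0.66 for Abcb1a. Abcc1, Abcc3, Abcc4 and Abcc5 were each above Abcc10, Abcb1a and Abcb1b in mean TPM on both days.

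**Figure D1:**
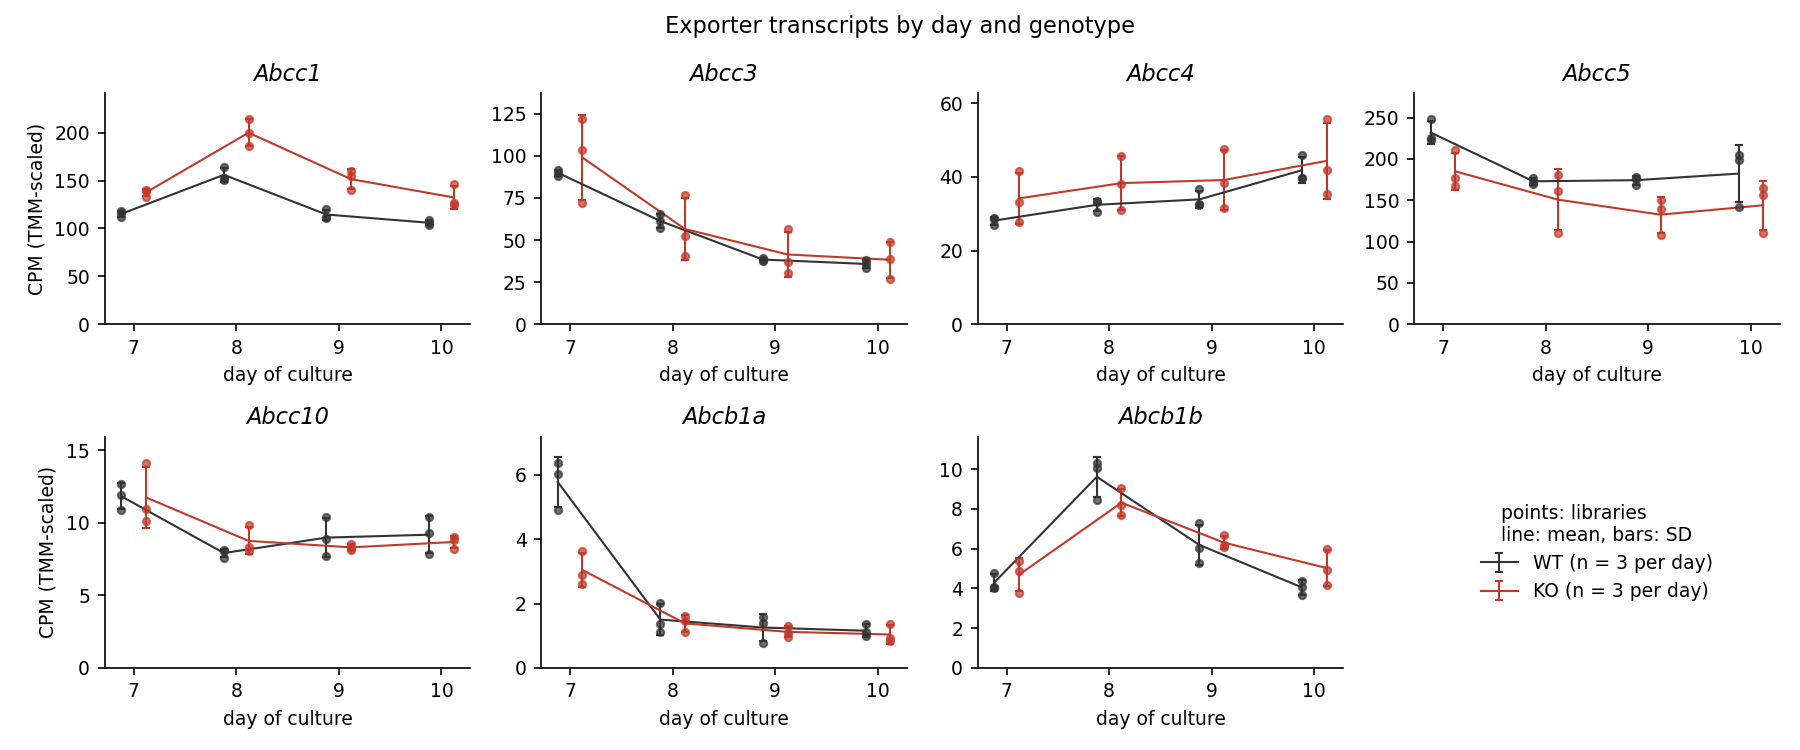
CPM of each of the 7 exporters (vertical axes, separate scale per gene) against day of culture, with 1 point per library, a line through the means of 3 mice and bars for the SD. Abcc1 stands higher in KO than in WT on every day and peaks on day 8, Abcc3 and Abcb1a decline from day 7, and the KO points of Abcc3, Abcc4 and Abcc5 are widely spread.

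Abcc1, the exporter of leukotriene C4, lies on chromosome 16 from 14361558 to 14475737 on the forward strand (GRCm38, GENCODE M21). In WT mice 63, 65 and 66 it stood at 116, 118 and 112 CPM on day 7. On day 8 it stood at 153, 164 and 151 CPM. On day 9 it was at 121, 111 and 112 CPM and on day 10 at 104, 106 and 109 CPM. The 3 libraries of day 8 were above all WT libraries of the other days. In KO numbers 64, 67 and 68 it was at 140.02, 139 and 133 CPM on day 7 and at 214, 199.8 and 186 CPM on day 8. It was then at 159.7, 155 and 140.00 CPM on day 9 and at 127, 146 and 124 CPM on day 10. Day 8 was again the highest, with no overlap with day 7 or day 9. The summed mast cell and basophil markers were also at their highest in the WT libraries of day 8, at 84.2 to 126 CPM, with overlap with day 9, and their part in the peak was not tested.

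Abcc1 rose from day 7 to day 8 by 0.44 on the log2 scale in WT (SE 0.069, 1.35-fold, adjusted p = 3.4e-05, edgeR's quasi-likelihood test) and by 0.54 in KO (SE 0.068, 1.45-fold, adjusted p = 3.0e-06). From day 8 to day 9 it fell by 0.45 in WT (SE 0.069, adjusted p = 0.0013) and fell by 0.40 in KO (SE 0.068, adjusted p = 0.0043). Of all genes tested, 65 (0.447%) were called up on day 8 and down on day 9 in both genotypes, and Abcc1 was the only exporter among them. The fall from day 8 to day 9 was no longer called in WT without mouse 65 (adjusted p = 0.11) or mouse 66 (adjusted p = 0.074), nor in KO without number 68 (adjusted p = 0.063). Day 10 against day 7 gave -0.12 in WT (SE 0.069, adjusted p = 0.18) and -0.055 in KO (SE 0.068, adjusted p = 0.57). On the TPM scale, where the median of all genes is shifted upward, the same comparison gave 0.16 in WT and 0.24 in KO (adjusted p = 0.018 in limma), so the direction of Abcc1 between these days depended on the scale.

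The difference between genotypes is what put Abcc1 at the head of the list, so its values are given as a description without a test. The KO mean was above the WT mean by 0.26 on the log2 scale on day 7 (SE 0.069, 1.19-fold), by 0.36 on day 8 (SE 0.068, 1.28-fold), by 0.40 on day 9 (SE 0.069, 1.32-fold) and by 0.32 on day 10 (SE 0.068, 1.25-fold). No KO library overlapped a WT library of the same day. Of all genes tested, 42 (0.289%) were higher in KO without overlap on each of the 4 days. In order of the group means Abcc1 was at 199.9 CPM in KO on day 8, 156 in WT on day 8, 151 in KO on day 9, 138 in KO on day 7, 132 in KO on day 10, 115.2 in WT on day 7, 114.5 in WT on day 9 and 106 in WT on day 10. KO day 8 was separated from the next group, as were KO day 10 from WT day 7 and WT day 9 from WT day 10, while the ranges of WT day 8 and KO day 9, of KO day 9 and KO day 7, of KO day 7 and KO day 10, and of WT day 7 and WT day 9 overlapped. The KO level on days 9 and 10 thus stayed above every WT library except those of day 8.

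Abcc4, which exports cyclic nucleotides and prostaglandins, lies on chromosome 14 from 118482692 to 118706219 on the reverse strand. In WT mice 63, 65 and 66 it was at 28.8, 26.9 and 28.7 CPM on day 7, at 30.5, 33.3 and 33.5 on day 8, at 36.6, 32.3 and 32.8 on day 9 and at 39.8, 39.8 and 45.9 CPM on day 10. The libraries of day 10 were above all earlier WT libraries. Abcc4 rose by 0.57 on the log2 scale from day 7 to day 10 in WT (SE 0.17, 1.49-fold, adjusted p = 0.011). The call was lost when any 1 of the 3 WT mice was left out, while the change stayed of like size. It was 0.63 without mouse 63 (adjusted p = 0.052), 0.58 without mouse 65 (0.074) and 0.52 without mouse 66 (0.11). In KO numbers 64, 67 and 68 it was at 27.9, 41.5 and 33.1 CPM on day 7, at 38.2, 45.7 and 31.1 on day 8, at 31.5, 47.7 and 38.3 on day 9 and at 55.7, 35.5 and 41.9 CPM on day 10. The KO ranges overlapped between all days, and day 10 against day 7 gave 0.38 (SE 0.17, adjusted p = 0.082). The KO value depended on 1 library a day, at 0.67 without number 67 (adjusted p = 0.00077) and 0.051 without number 64 (adjusted p = 0.85), the ends of its range over the 13 alternatives. It was also called on the TPM scale (0.64, adjusted p = 0.013 in limma) and without the KO library highest on the first principal component of each day (0.36, adjusted p = 0.040), and in none of the other 10.

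Abcc3, an exporter of glucuronides and other organic anions, lies on chromosome 11 from 94343295 to 94392997 on the reverse strand. In WT it was at 91.8, 89.9 and 88.2 CPM on day 7 and at 57.1, 65.2 and 61.6 CPM on day 8. It was at 39.5, 38.2 and 37.6 CPM on day 9 and at 38.1, 36.0 and 33.4 CPM on day 10. Days 7, 8 and 9 were separated from each other in WT, each lower than the day before. These steps, -0.55 from day 7 to day 8 and -0.67 from day 8 to day 9, were not called by edgeR (adjusted p = 0.055 and 0.089). Between days 7 and 10 Abcc3 fell by 1.33 on the log2 scale in WT (SE 0.23, 60.2% lower, adjusted p = 0.00016) and fell by 1.37 in KO (SE 0.23, 61.3% lower, adjusted p = 0.00013). In KO it was at 122, 71.9 and 103 CPM on day 7, at 52.2, 40.8 and 76.6 on day 8, at 56.7, 30.7 and 36.9 on day 9 and at 27.2, 48.7 and 39.0 CPM on day 10. All KO libraries of day 10 were below those of day 7, although the KO libraries differed from each other far more than the WT libraries, with a coefficient of variation of 25.4 to 32.7% in KO and 1.97 to 6.66% in WT. The fit takes 1 spread per gene over both genotypes. The SE of 0.23 in each genotype therefore does not measure the spread within that genotype. In KO the step from day 7 to day 8 alone was called, a fall by 0.81 (SE 0.23, adjusted p = 0.0073), with overlapping ranges.

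Abcc5, which exports cyclic nucleotides, lies on chromosome 16 from 20331303 to 20426394 on the reverse strand. In WT it was at 223, 248 and 225 CPM on day 7, at 169.6, 177 and 172 on day 8, at 168, 176 and 179 on day 9 and at 205, 199 and 142 CPM on day 10. Day 7 was above all later days, and mouse 66 was the low library of day 10. In KO it was at 210.2, 167 and 177 CPM on day 7, at 161, 110.2 and 181 on day 8, at 149.97, 108 and 139.6 on day 9 and at 110.3, 165 and 157 CPM on day 10. The KO libraries of day 10 were below those of day 7. Day 10 against day 7 gave -0.35 in WT (SE 0.17, adjusted p = 0.11) and -0.36 in KO (SE 0.17, adjusted p = 0.10), neither past the threshold of 0.05, and without number 67 both were called (adjusted p = 0.036 in WT and 0.0088 in KO). From day 7 to day 8 Abcc5 fell by 0.42 in WT (SE 0.17, adjusted p = 0.049), at the edge of the threshold: the call was lost in limma voom with the mouse number as a replicate block (adjusted p = 0.055) and without it (0.056), with DESeq2 size factors (0.058), on the TPM scale (0.31) and without number 63 (0.17), 65 (0.23), 66 (0.15) or 68 (0.065).

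**Figure D2:**
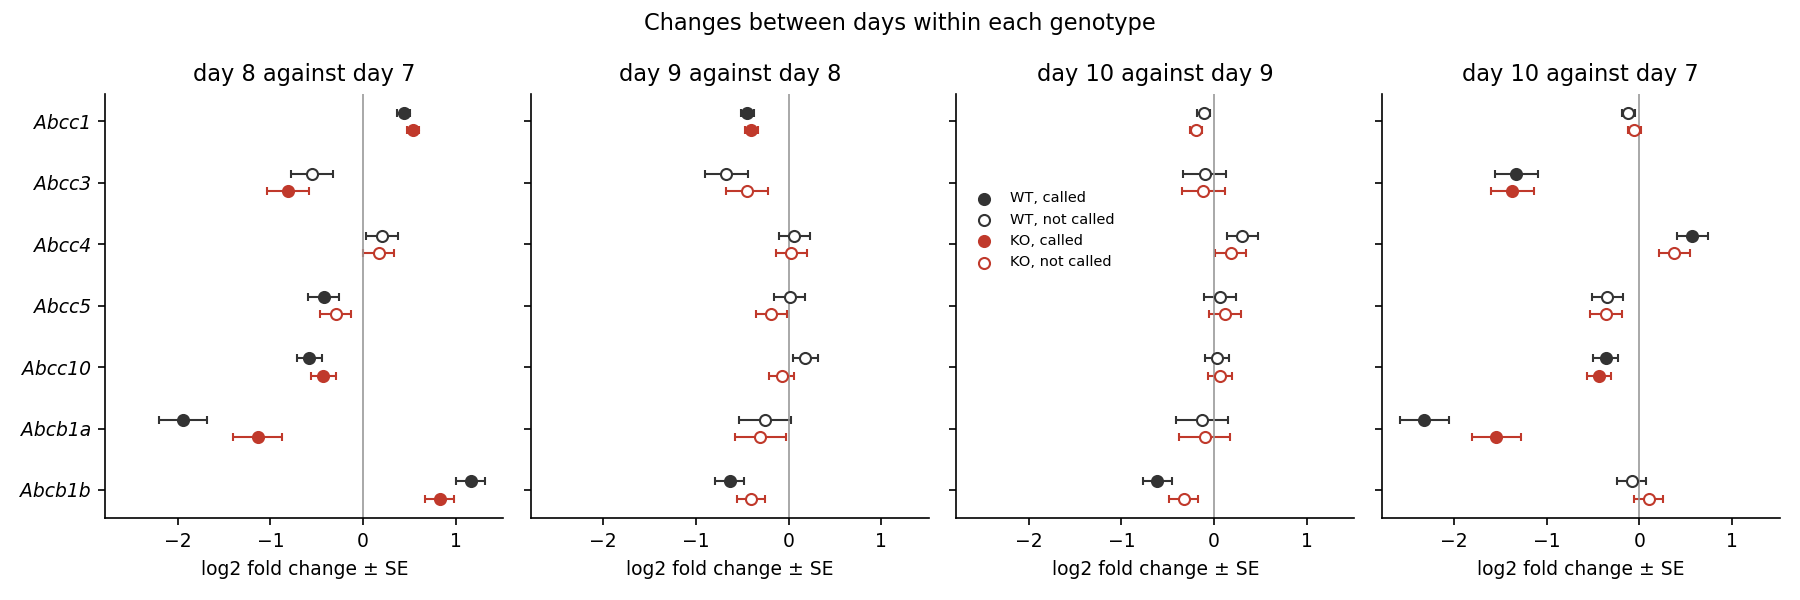
Log2 fold change of each exporter (horizontal axis, bars for the SE) for day 8 against 7, 9 against 8, 10 against 9 and 10 against 7, in WT and KO. Filled points passed an adjusted p of 0.05 over all 14535 genes, and the largest falls are those of Abcb1a and Abcc3 while Abcc1 and Abcb1b rise to day 8 and turn back.

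Between day 7 and day 10, 4 of the 7 exporters were called in WT, Abcc4 upward and Abcc3, Abcc10 and Abcb1a downward, against 37.0% of all genes (18.9% upward and 18.1% downward). In KO 3 were called, Abcc3, Abcc10 and Abcb1a, all downward, against 36.8% of all genes (17.1% downward). The median log2 change of the 7 was -0.35 in WT and -0.36 in KO, where the medians of all genes were -0.015 and 0.0033. On the TPM scale, where the medians of all genes were 0.21 and 0.25, those of the 7 were -0.071 and -0.068. On that scale 3 were called in WT, Abcc4 upward and Abcc3 and Abcb1a downward (47.3% of all genes), and 4 in KO, Abcc1 and Abcc4 upward and Abcc3 and Abcb1a downward (51.6%), so Abcc10 was not called and the KO calls were no longer all downward. From day 7 to day 8, 5 were called in WT (background 43.4%) and 5 in KO (background 42.0%), and Abcc1 and Abcb1b upward and Abcc10 and Abcb1a downward were called in both. From day 8 to day 9, 2 were called in WT (5.40%) and 1 in KO (2.33%). From day 9 to day 10, 1 was called in WT (3.60%). In KO the last step called 0 exporters by edgeR (0.0963% of all genes) and 0 by DESeq2 (1.42%), with 2 at an unadjusted p under 0.05, against 11.96% of all genes. Without number 67, 2 were called in that step, where the share of all genes called was 14.2%. For the difference of the day 10 against day 7 change between genotypes, 0 of 7 were called by edgeR (0.0619% of all genes, 9 genes) and by DESeq2 (0.268%), with 1, Abcb1a, at an unadjusted p under 0.05, against 6.31% of all genes.

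Among the KO libraries Abcc3, Abcc4 and Abcc5 varied together. On days 7, 8 and 9 number 67 had the highest Abcc4 and the lowest Abcc3 and Abcc5 of the 3 KO libraries, and on day 10 number 64 did. Those 4 libraries were also the highest of their day's KO libraries on the first principal component of all genes. They held the highest summed dendritic cell markers of their trio, at 3756, 5047, 6867 and 8308 CPM on days 7 to 10, and the lowest summed macrophage markers, at 4907, 4003, 3575 and 3220 CPM. Their summed mast cell and basophil markers were also the highest of the trio, at 127, 179, 156 and 85.1 CPM, and their neutrophil markers were the highest on days 7 and 8, at 5858 and 3317 CPM. The part of these markers in the spread of the 3 exporters was not tested. Among KO libraries, taken as deviations from their group means over 12 libraries, Pearson's r was -0.98 for Abcc3 with Abcc4, 0.89 for Abcc3 with Abcc5 and -0.92 for Abcc4 with Abcc5. In WT the same values were -0.031, 0.61 and -0.75. The other exporters did not follow Abcc3 in the same way among KO libraries, with r of 0.17 for Abcc1, -0.079 for Abcb1a, -0.22 for Abcb1b and 0.55 for Abcc10, while Abcc1 had -0.72 with Abcb1a and 0.63 with Abcb1b. These points share their groups and their libraries. In WT the library of mouse 66 on day 10 also had the highest Abcc4 and the lowest Abcc3 and Abcc5 of its group, with the highest summed dendritic cell markers of that group at 7456 CPM but also the highest macrophage sum at 3582 CPM. The neutrophil sum of that library, 5913 CPM, and its mast cell and basophil sum, 67.8 CPM, were the highest of the group as well. Leaving out the 4 KO libraries, a choice made after seeing the data, 5 exporters were called from day 7 to day 10 in WT (39.5% of all genes) and 4 in KO (28.5%).

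**Figure D3:**
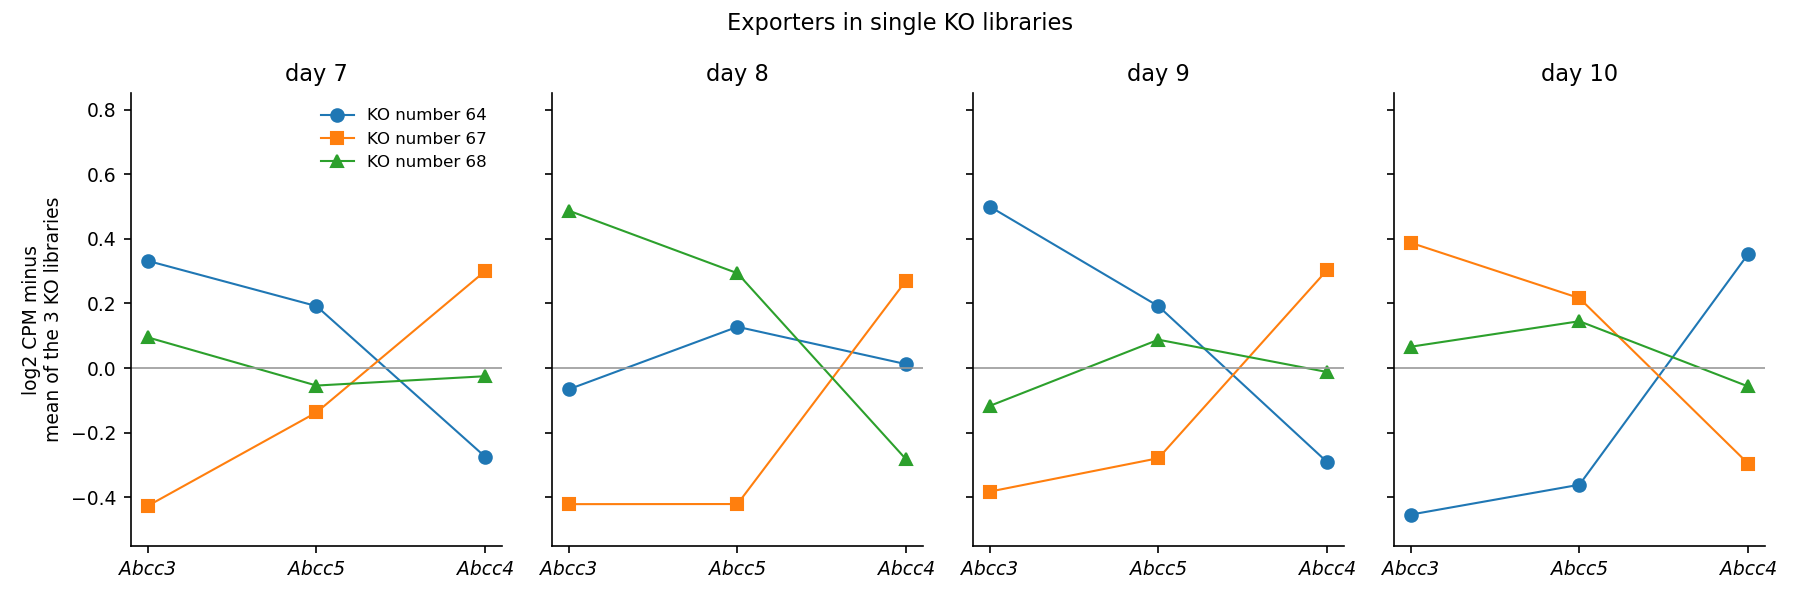
Log2 CPM of Abcc3, Abcc5 and Abcc4 in each KO library minus the mean of the 3 KO libraries of that day, with 1 line per mouse number and 1 panel per day. Number 67 is the library with low Abcc3 and Abcc5 and high Abcc4 on days 7, 8 and 9, and number 64 on day 10.

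Promoter sequences of exporters whose RefSeq start coincided with the GENCODE start are shown because Abcb1b peaked on day 8 while Abcc4 and Abcc5 moved in opposite directions between the libraries. Each is the 250 bases before the start, 5′ to 3′ on the gene's strand, from the RefSeq table of GRCm38.p6, which held 5 of the 7 genes (not Abcc1 and Abcc3). Capitals mark matches, on either strand, to the GC box GGGCGG, the CCAAT box CCAAT, the TATA box TATAAA and the antioxidant response element core TGACNNNGC.
Abcb1b, chr5:8797897-8798146, forward strand: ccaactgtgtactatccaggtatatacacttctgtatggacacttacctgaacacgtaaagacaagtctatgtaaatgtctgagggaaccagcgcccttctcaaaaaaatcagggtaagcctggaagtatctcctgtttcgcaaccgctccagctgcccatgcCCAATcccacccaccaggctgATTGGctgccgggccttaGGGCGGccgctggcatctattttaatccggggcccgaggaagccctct
Abcc4, chr14:118706220-118706469, reverse strand: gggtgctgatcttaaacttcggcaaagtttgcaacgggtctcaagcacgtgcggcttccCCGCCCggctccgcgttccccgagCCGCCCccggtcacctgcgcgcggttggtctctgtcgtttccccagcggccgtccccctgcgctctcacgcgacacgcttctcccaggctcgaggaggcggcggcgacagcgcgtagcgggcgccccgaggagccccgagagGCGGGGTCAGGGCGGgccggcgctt
Abcc5, chr16:20426395-20426644, reverse strand: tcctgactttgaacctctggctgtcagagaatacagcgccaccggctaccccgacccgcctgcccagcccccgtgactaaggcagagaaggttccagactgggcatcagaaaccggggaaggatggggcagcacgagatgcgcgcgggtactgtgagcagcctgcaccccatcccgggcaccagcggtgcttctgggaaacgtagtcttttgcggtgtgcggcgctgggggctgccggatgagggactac
The Abcb1b window held a CCAAT box forward at -87 to -83 and another in reverse at -66 to -62, with a GC box at -48 to -43. The Abcc4 window, 72% G and C, held GC boxes at -191 to -186 and -167 to -162 in reverse and at -16 to -11 forward, and next to the last an antioxidant response element core in reverse at -25 to -17. The Abcc5 window, 64% G and C, held none of these letters. Over 32851 promoters of this length, 32.7% held the GC box, 33.8% the CCAAT box, 12.4% the TATA box and 10.2% the antioxidant response element core, and the median G and C content was 52.4%. A match describes the letters and not a bound site.

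Abcc10, a drug exporter of the same subfamily, lies on chromosome 17 from 46303221 to 46328352 on the reverse strand. Its 51 exonic bases shared with Dlk2 on the opposite strand bear on few reads, since Dlk2 had 40 counts in all libraries against 5950 for Abcc10. In WT it was at 11.9, 10.9 and 12.7 CPM on day 7, at 8.04, 7.58 and 8.10 on day 8, at 10.4, 7.68 and 8.86 on day 9 and at 10.4, 9.29 and 7.82 CPM on day 10. In KO it was at 14.1, 10.1 and 10.97 CPM on day 7 and within 8.08 to 9.80 CPM on the later days. Day 7 was the highest day in both genotypes, without overlap with day 10. Over days 7 to 10 Abcc10 fell by 0.37 on the log2 scale in WT (SE 0.13, adjusted p = 0.035) and fell by 0.44 in KO (SE 0.13, adjusted p = 0.013). The WT call was lost without number 65 (adjusted p = 0.071), 66 (0.40) or 68 (0.051) and without the filter on low counts (0.11), the KO call without number 64 (0.19) or 68 (0.063), and both on the TPM scale (0.66 and 0.52). From day 7 to day 8 it fell by 0.58 in WT (SE 0.13, adjusted p = 0.0014) and fell by 0.43 in KO (SE 0.13, adjusted p = 0.013), of which the KO call was lost without number 64 (0.26). On the TPM scale these were not called either (0.063 in WT and 0.31 in KO).

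Abcb1a and Abcb1b, the mouse genes for P-glycoprotein, lie side by side on chromosome 5, Abcb1a from 8660077 to 8748575 and Abcb1b from 8798147 to 8866315, both on the forward strand. They had the fewest counts of the 7 exporters, 1232 and 3881 counts over all 24 libraries. Their longest coding transcripts were 87.6% identical over 4005 aligned bases, and 488 of 5404 exonic stretches of 100 bases of Abcb1a (9.03%) also occurred in Abcb1b, so that a part of the reads could have been split between them. In WT Abcb1a was at 6.38, 6.04 and 4.92 CPM on day 7 and at 1.12, 2.03 and 1.36 CPM on day 8. It stayed between 0.77 and 1.58 CPM on days 9 and 10. In KO it was at 2.87, 2.61 and 3.64 CPM on day 7, at 1.10, 1.44 and 1.61 CPM on day 8 and between 0.83 and 1.37 CPM on days 9 and 10. Day 7 was above every later day in both genotypes. Between days 7 and 8 Abcb1a fell by 1.94 on the log2 scale in WT (SE 0.26, 74.0% lower, adjusted p = 4.6e-06) and fell by 1.14 in KO (SE 0.26, 54.5% lower, adjusted p = 0.0015). From day 7 to day 10 it fell by 2.32 in WT (SE 0.26, 80.0% lower, adjusted p = 1.8e-06) and fell by 1.54 in KO (SE 0.26, 65.7% lower, adjusted p = 0.00014). The 2 changes differed by 0.78 (SE 0.37, adjusted p = 0.79, unadjusted p = 0.047), which did not pass the threshold. On the TPM scale, log2(TPM + 1), Abcb1a from day 7 to day 10 was at -1.17 in WT and -0.61 in KO, both still called in limma (adjusted p = 1.4e-06 and 0.00065).

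Abcb1b went the other way from day 7 to day 8. In WT it was at 4.05, 4.03 and 4.79 CPM on day 7, at 8.46, 10.1 and 10.3 on day 8, at 6.03, 5.26 and 7.27 on day 9 and at 3.67, 4.39 and 4.09 CPM on day 10. In KO it was at 4.87, 5.40 and 3.77 CPM on day 7, at 8.20, 9.05 and 7.69 on day 8, at 6.16, 6.66 and 6.07 on day 9 and at 4.92, 5.99 and 4.16 CPM on day 10. Day 8 was above every other day in both genotypes. Abcb1b rose from day 7 to day 8 by 1.16 on the log2 scale in WT (SE 0.16, 2.24-fold, adjusted p = 5.7e-06) and by 0.83 in KO (SE 0.15, 1.78-fold, adjusted p = 0.00023). It fell by 0.64 from day 8 to day 9 in WT (SE 0.15, adjusted p = 0.022) and fell by 0.61 from day 9 to day 10 in WT (SE 0.16, adjusted p = 0.036). The first of these was lost without mouse 63 (adjusted p = 0.14), 65 (0.29) or 66 (0.14). The second was lost without number 63 (0.34), 64 (0.056), 65 (0.13) or 66 (0.22), without the filter on low counts (0.075), on the TPM scale (0.089) and in limma voom with the mouse number as a replicate block (0.052) or without the block (0.054). Abcc1 and Abcb1b were the 2 exporters whose day 8 libraries lay above those of days 7 and 9 in both genotypes, which 2.87% of all genes did.

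In TPM the pair together was at 4.22 ± 0.24 (SD, n = 3) in the WT libraries of day 7. Days 8, 9 and 10 followed with 4.59 ± 0.61, 3.22 ± 0.48 and 2.32 ± 0.24. In KO the same sums were 3.16 ± 0.16, 4.21 ± 0.55, 3.35 ± 0.30 and 2.80 ± 0.40. Abcb1a made up 66.1% ± 5.3 of the pair in WT on day 7, and 18.3% ± 3.8, 22.8% ± 7.4 and 29.3% ± 2.9 on days 8, 9 and 10. In KO its share was 48.7% ± 8.7 on day 7, and 19.5% ± 3.5, 20.6% ± 3.1 and 23.4% ± 6.1 on the later days. The lowest WT share on day 7 was 60.0% and the highest KO share 58.4%. In both genotypes the pair went on this scale from a mixture with much Abcb1a on day 7 to mostly Abcb1b from day 8 on. The sums and shares depend on the gene lengths used. The annotated exonic length is 5480 bases for Abcb1a and 7990 for Abcb1b, while their longest coding transcripts have 4997 and 4306 bases.

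**Figure D4:**
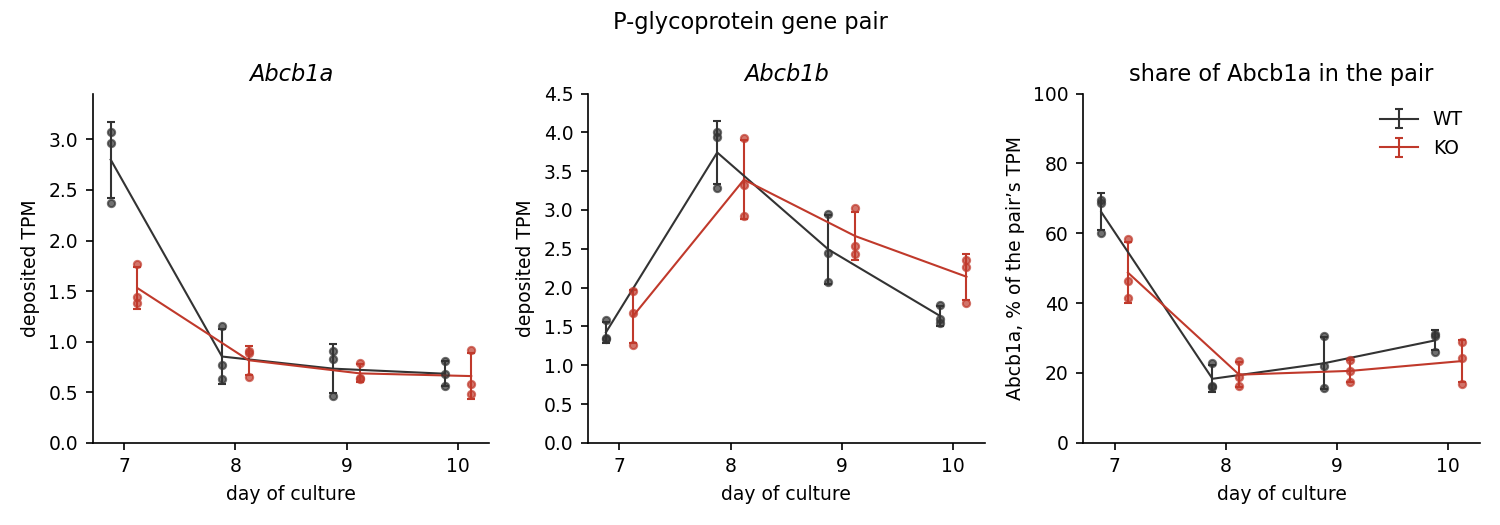
Deposited TPM of Abcb1a and Abcb1b and the share of Abcb1a in their sum (vertical axes) against day of culture, with 1 point per library, a line through the means of 3 mice and bars for the SD. Abcb1a drops after day 7 while Abcb1b peaks on day 8, and the share of Abcb1a falls from 66.1% in WT and 48.7% in KO on day 7 to 18.3% and 19.5% on day 8.

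The other differences between genotypes are likewise given as a description without p-values, since the list was chosen with that contrast in view. Abcb1a was lower in KO on day 7 without overlap, by 0.92 on the log2 scale (47.3% lower). On days 8, 9 and 10 it was at -0.12, -0.17 and -0.15, with overlapping ranges. Abcc5 was lower in KO without overlap on day 7 (-0.33, SE 0.17) and on day 9 (-0.39, SE 0.17), and was at -0.20 on day 8 and -0.34 on day 10 with overlap. Abcc3, Abcc4, Abcc10 and Abcb1b overlapped between genotypes on all 4 days. Of all genes, 26.2%, 9.39%, 14.1% and 10.4% had no overlap on days 7, 8, 9 and 10. Their averages over the 4 days were 0.056 for Abcc3, 0.20 for Abcc4, -0.014 for Abcc10 and 0.064 for Abcb1b. Averaged over the 4 days, which counts each number on 4 days, Abcc1 was at 0.33 (SE 0.034), Abcc5 at -0.31 (SE 0.085) and Abcb1a at -0.34 (SE 0.13). Without the 4 KO libraries that stood apart Abcc1 was at 0.34, Abcc5 at -0.17, Abcc3 at 0.25 and Abcc4 at 0.042.

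For the lists of related genes that follow, the shares of all genes called from day 7 to day 10 were 37.0% in WT (18.9% up, 18.1% down) and 36.8% in KO (19.7% up, 17.1% down). In TPM they were 47.3% and 51.6%, with 84.4% and 85.9% of these calls upward. Of 13 genes tested that make the lipids exported by Abcc1 and Abcc4, 3 rose and 4 fell in WT and 3 rose and 3 fell in KO. With TPM 5 rose and 2 fell in WT and 6 rose and 2 fell in KO. Alox5, the 5-lipoxygenase that starts leukotriene synthesis, rose by 1.62 in WT (adjusted p = 3.0e-07) and by 1.54 in KO (adjusted p = 4.5e-07) on the log2 scale. Ltc4s, the synthase of the Abcc1 substrate leukotriene C4, fell by 0.46 in WT (adjusted p = 0.032) and fell by 0.51 in KO (adjusted p = 0.019). In TPM it was at -0.17 and -0.19 and was not called (adjusted p = 0.45 and 0.36 in limma). Its lowest day was day 8, at 8.46 ± 0.41 CPM in WT and 7.45 ± 0.55 in KO (SD, n = 3), the day on which Abcc1 was at its highest. Alox5ap, which presents the substrate to Alox5, gave 0.21 in WT and -0.080 in KO, neither past the threshold, and 0.48 in WT (adjusted p = 0.0010) and 0.24 in KO (adjusted p = 0.065) on the TPM scale. Ptgs1, a cyclooxygenase, rose by 0.98 in WT, while the inducible cyclooxygenase Ptgs2 fell by 1.36 and the prostaglandin D synthase Hpgds fell by 1.00. Ptges, a synthase of the Abcc4 substrate prostaglandin E2, fell by 0.62 in WT and fell by 1.12 in KO (adjusted p = 0.018 and 0.00025), and on the TPM scale the WT call was lost (adjusted p = 0.12).

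Genes of glutathione synthesis and conjugation, which make the glutathione and conjugates that Abcc1 exports, mostly fell from day 7 to day 10. Of 16 tested, 13 fell and 0 rose in WT and 12 fell and 1 rose in KO, against 18.1% and 17.1% of all genes called down, with median log2 changes of -0.53 and -0.52. In TPM 8 fell and 0 rose in WT and 6 fell and 2 rose in KO, with medians of -0.25 and -0.20. The glutathione transferase Gsta3 fell by 2.49 in WT and fell by 2.41 in KO, and Gstm5 fell by 1.20 in WT and fell by 1.31 in KO. Gclm, the modifier subunit of the first enzyme of glutathione synthesis, fell by 0.77 in WT and fell by 0.58 in KO. Its catalytic subunit Gclc fell by 0.65 in WT (adjusted p = 2.7e-06) and gave -0.18 in KO (adjusted p = 0.074), and the difference between the genotypes did not pass the threshold (adjusted p = 0.15). Nfe2l2, which encodes the regulator NRF2 that acts at antioxidant response elements, fell by 0.61 in WT (adjusted p = 1.3e-06) and fell by 0.59 in KO (adjusted p = 1.8e-06). Among 11 regulators of exporter genes tested, 2 rose and 4 fell in WT and 2 rose and 5 fell in KO, with Ahr, the receptor of aromatic hydrocarbons, rising by 1.30, Trp53, the tumour suppressor p53, by 0.63 and Hif1a, the hypoxia regulator, at -0.64 in WT. In TPM 5 of the regulators rose and 2 fell in WT, and 4 rose and 2 fell in KO.

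Of 11 other ABCC and ABCB genes and Abcg2 tested, 2 rose and 2 fell in WT, near the share of all genes, and 2 rose and 0 fell in KO. In WT the heme-linked mitochondrial Abcb10 rose by 0.49 and the peptide transporter Tap1 by 0.38, while the phospholipid floppase Abcb4 fell by 1.85. Abcg2, another drug pump, gave -0.051 in WT and -0.23 in KO, neither past the threshold. Of 12 ABCA and ABCG lipid transporters, 6 rose and 3 fell in WT and 4 rose and 2 fell in KO. In WT Abca13 rose by 1.68 and the cholesterol exporter Abcg4 by 1.56, while Abca9 fell by 1.19 and the cholesterol exporter Abca1 fell by 0.88. With TPM these were 7 and 2 in both genotypes, and for the 11 other ABCC and ABCB genes and Abcg2 they were 4 and 1 in WT and 5 and 0 in KO. Of 14 uptake transporters of drugs and organic anions, 4 rose and 5 fell in WT and 2 rose and 5 fell in KO. In WT Slco3a1 rose by 3.01 and Slco4c1 by 1.74, while the folate carrier Slc46a1 fell by 0.94 and Slco2b1 fell by 0.86 (not called on the TPM scale, adjusted p = 0.051). Of 23 genes for lipid mediator receptors, uptake and breakdown, 4 rose and 8 fell in WT and 5 rose and 6 fell in KO. In WT the sphingosine phosphate receptor S1pr3 rose by 2.30 and the prostaglandin receptor Ptger3 by 2.25. The prostaglandin uptake carrier Slco2a1 fell by 2.73 (SE 0.88, adjusted p = 0.020) and the thromboxane receptor Tbxa2r fell by 2.28 (SE 0.79, adjusted p = 0.028). On the TPM scale, log2(TPM + 1), they were at -0.37 and -0.45. The added 1 shrinks the changes of genes with a low TPM. With TPM the receptor group had 9 rising and 5 falling in WT and 8 rising and 4 falling in KO, and the uptake transporters 4 rising and 2 falling in WT and 4 rising and 3 falling in KO.

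The genes whose pattern was most like that of each exporter were sought among 10481 genes over the 24 libraries, which share their days and genotypes. For Abcc1 they were Ankfy1 (Pearson's r of log2 CPM 0.93), Rapgef5 (0.93), Tor1aip1 (0.91), Tulp4 (0.91) and Znfx1 (0.90). For Abcc3 they were Dtx4 and Syk (0.98 each), for Abcc4 Grk3 (0.95) and Adam23 (0.94), and for Abcc5 Mgll (0.91) and Atp6v0d2 (0.90). For Abcc10 they were Fbxw5 (0.89) and Frmd4b (0.87), for Abcb1a Ptp4a2 (0.96) and Atf6 (0.95), and for Abcb1b Ets2 (0.93) and Eef1akmt4 (0.93). Among the exporters themselves the strongest correlations over the 24 libraries were those of Abcc4 with Abcc5 (r = -0.80) and with Abcc3 (r = -0.78), whose patterns were opposite, and of Abcc3 with Abcb1a (r = 0.77) and Abcc1 with Abcb1b (r = 0.74), whose patterns were alike.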

How the data were processed

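The members and gene lists were chosen with earlier results of these data known. The authors' deposit holds unnormalized whole-number counts and, for the same genes, TPM, both as deposited for every library. Per the submitters' processing notes, STAR 2.6.1, FastQC 0.11.9, DESeq2 1.22.2 and mm10 were used; the counting tool, strand setting and annotation are not given in the sources used here, and the labels name library kits of 2 kinds without saying which library had which. The deposited counts were fitted in R 4.3.3 with edgeR 4.0.16 (TMM, filterByExpr, quasi-likelihood test, 1 coefficient for each of the 8 groups, 16 residual degrees of freedom). This fit takes 1 spread per gene over both genotypes, so its SE and p-values do not measure the spread within WT or KO alone. That matters for Abcc3, Abcc4 and Abcc5, which were more widely spread in KO. The p-values were adjusted by Benjamini-Hochberg over 14535 genes, and a gene was called at an adjusted p under 0.05. CPM used TMM library sizes, and log2 CPM for correlations had a prior count of 2. Replicates are separate mice. The named genes are the 7 exporters, the 5 genes most like Abcc1 and 2 most like each other exporter by Pearson's r, up to 2 genes per direction with the largest change past the threshold in each list in WT from day 7 to day 10, and known partners. A gene that this rule would name is not reported here. Alternatives were DESeq2 size factors in edgeR, DESeq2 1.42.0, no filter, limma 3.58.1 on log2(TPM + 1), each mouse number left out, the mouse number as a replicate block in limma voom, and, added after seeing the data, limma voom without the block and leaving out the KO library highest on the first principal component each day. Each number names a mouse on the labels. Over 11002 genes, libraries of the same WT number deviated from their group means together, with mean correlations of 0.42, 0.40 and 0.26 for mice 63, 65 and 66, while the KO numbers 64, 67 and 68 gave -0.10, -0.01 and 0.13. Scripts were tested on simulated data. Of the table's gene identifiers, 55094 of 55487 were found with their version in GENCODE M21.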

Additional observations from a re-analysis of the deposited data

How the results depend on the processing

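The counts below are of the 7 exporters past the threshold, beside the reported count. On the TPM scale day 8 against day 7 in WT gave 3 (reported 5). On that scale day 10 against day 7 gave 3 in WT (reported 4) and 4 in KO (reported 3, all downward), of which 2 were upward. Day 10 against day 9 in WT gave 0 without the filter on low counts, on the TPM scale, and in limma voom with and without the replicate block (reported 1). The replicate block, fitted in limma voom, had a consensus correlation of 0.0046. The same calls moved in limma voom without the block, a fit added after seeing the data. For Abcc5 from day 7 to day 8 in WT the adjusted p was 0.055 with the block and 0.056 without it. These moves thus came with the change of tool, and adding the block moved no count of exporters called. The block pooled WT numbers, whose libraries deviated together, with KO numbers, whose libraries did not. A correlation this low could move little, so this fit cannot show what the pairing of WT mice does. A block in WT alone was not fitted. Leaving out each mouse number in turn gave 2 to 5 for day 10 against day 7 in WT (2 without mouse 65 or 66) and 2 to 5 in KO (5 without number 67), 4 to 6 for day 8 against day 7 in WT and 4 to 5 in KO, 0 to 3 for day 9 against day 8 in WT (0 without mouse 65 or 66) and 0 to 1 in KO, and 0 to 1 for day 10 against day 9 in WT and 0 to 2 in KO. The difference between genotypes in the day 10 against day 7 change gave 0 throughout. For KO against WT, the contrast that chose the exporters, no calls are counted. Averaged over the days Abcc1 was at 0.39 on the TPM scale (reported 0.33), and at 0.32 to 0.38 when each number was left out in turn. Over all genes, day 10 against day 7 called 5376 in WT and 3554, 3554 and 3255 without mouse 63, 65 or 66, and 5353 in KO and 3201 without number 64. For day 9 against day 8 in WT 5.40% of all genes were called, and 0.29%, 0.26% and 0.11% without mouse 63, 65 or 66. For day 10 against day 9 in WT these were 3.60%, and 0%, 0.20% and 1.23%. Day 9 against day 8 in KO called 2.33%, and 0.14% without number 68. Without number 67 the shares in these 3 steps were higher, at 11.3%, 7.25% and 3.73%. On the TPM scale the median of all genes from day 7 to day 10 was shifted to 0.21 in WT and 0.25 in KO, and 84.4% and 85.9% of calls were higher, against 51.1% and 53.6%. The TPM were used as deposited, without the TMM factors that scale the counts. In WT these factors were 0.877 to 0.886 on day 7 and 1.02 to 1.07 on day 10. In KO they were 0.895 to 0.969 and 1.00 to 1.13. Their part in the shift was not tested. The reversed values were Abcc1 at 0.16 and Abcb1b at 0.12 in WT and Abcc1 at 0.24 in KO on the TPM scale, and Abcc1 at 0.0039 in KO without the KO libraries highest on the first principal component; none of the 3 reported values passed the threshold. The calls of Abcc3 and Abcb1a from day 7 to day 10, and those of Abcc1 and Abcb1b from day 7 to day 8, were kept in both genotypes under all 13 alternatives. Abcb1a and Abcb1b, at a few CPM, had the lowest counts behind them.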
